A study of Mus musculus with 28 samples.

Results

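Transcripts of 9 RGS genes, Rgs1, Rgs2, Rgs3, Rgs4, Rgs5, Rgs10, Rgs16, Rgs18 and Rgs19, were followed in the retroperitoneal fat pads of mice fed trans-10 cis-12 conjugated linoleic acid (CLA), a dietary isomer known for shrinking fat depots of mice. The genes are 9 of the 18194 measured, and 24 of the 45101 probe sets of the array name 1 of them. They were picked by name with the differences between CLA and control on each day already known. Those differences are therefore given here as a description and no p-value is attached to them. Members past the call used for all genes are only counted beside the share of all genes. Each gene is represented by its probe set with the highest mean signal over the 28 arrays.

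The CLA pads came from C57BK/6J mice (spelled as in the labels), aged 9 weeks, that ate 0.5% CLA for 1, 2, 3, 4, 7, 10 or 17 days. The control pads came from mice of that strain and age on the control diet for the same numbers of days. There are 14 groups, 1 per diet on each day, with 2 Affymetrix arrays apiece, and every day has control arrays of its own. Per the labels, the fat pads of 10 mice were pooled before RNA extraction, but they do not say if both arrays of a group came from 1 pool. The design text counts 140 mice, the number that 1 pool of 10 per group gives, where 1 pool per array would need 280. If the arrays share a pool, the standard errors of the daily differences below measure technical spread only. The adjusted p-values of single days and of the control days would then rest on that spread too. Errors of differences over all 7 days come from group means, and measure how the difference varied between days. Signals are log2 values made by the authors with RMA, a method that corrects background, equalises the arrays and summarises the probes of each set. A difference of 1 is a 2-fold change, and levels of different genes are not compared because probes differ in brightness.

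RGS proteins switch off heterotrimeric G proteins. They speed up the hydrolysis of GTP by the alpha subunit and so shorten the signal of the receptors that act through Gi and Gq. In fat these receptors serve catecholamines, prostaglandins and metabolites on adipocytes, endothelin and angiotensin on vessel walls, and chemokines on leukocytes. Several RGS genes are themselves switched on by the signals they restrain.

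The members fell into 3 patterns. Rgs1, Rgs2, Rgs10, Rgs18 and Rgs19 had higher signal in CLA pads than in control pads on every day from day 2 to day 17, with both CLA arrays above both control arrays. Rgs3, Rgs4 and Rgs5 were lower in CLA pads on those days, with both CLA arrays below both control arrays. Rgs16 stayed between 3.90 and 4.61 on all 28 arrays, near the array medians of 4.1 to 4.2, where background cannot be told from expression. Over all 18194 genes, the CLA arrays lay above the control arrays on all of days 2 to 17 for 8.29% and below them for 8.67%. Averaged over the 7 days, the differences ran from 5.03 for Rgs1 to -0.97 for Rgs5, with a median of 0.645 over the 9 genes and of -0.029 over all genes measured. On day 1 the CLA arrays lay above the control arrays for 4 members and below them for 2, against 22.5% and 22.4% of all genes. On that day Rgs2, Rgs4, Rgs5 and Rgs10 differed from control in the direction opposite to the later days.

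**Figure D1:**
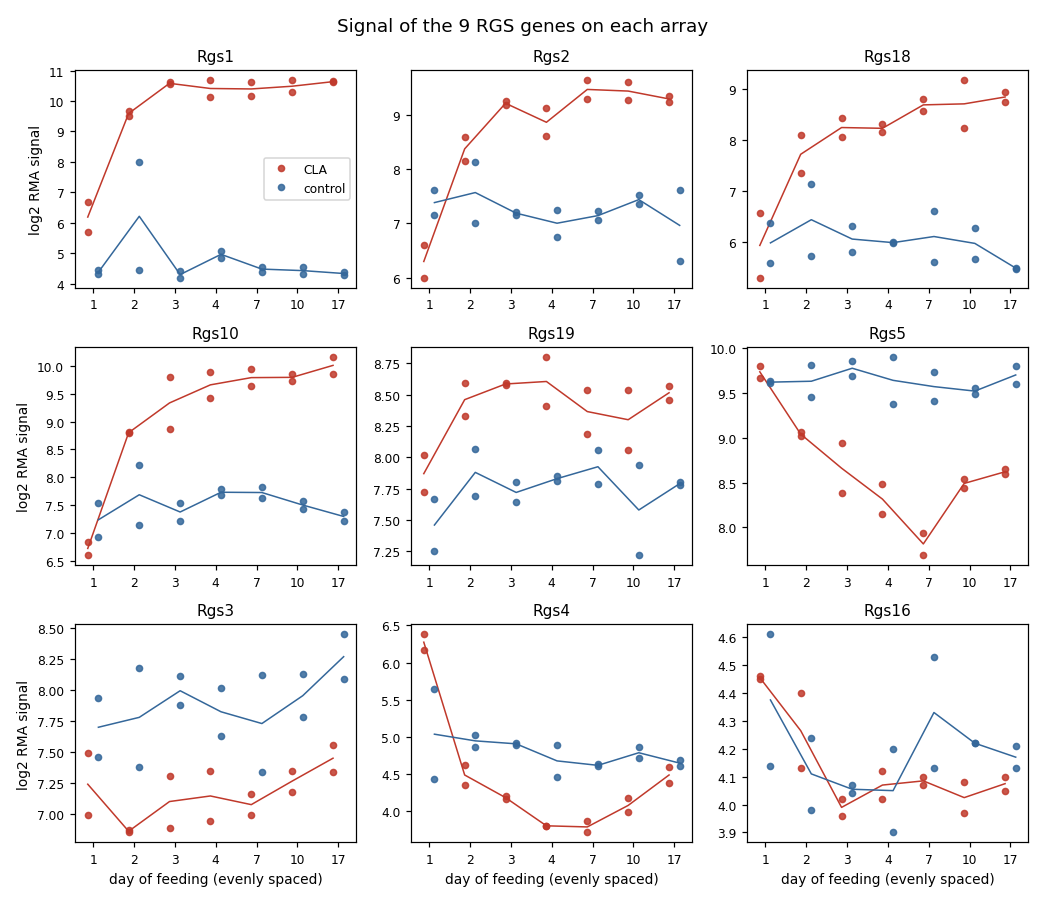
Log2 RMA signal of the 9 RGS genes on each of the 28 arrays, by day of feeding, with CLA in red left of control in blue. Points are arrays and lines join the means of the 2 arrays of a group. Rgs1, Rgs2, Rgs18, Rgs10 and Rgs19 separate upward from day 2, Rgs5, Rgs3 and Rgs4 separate downward, and the first control array of day 2 sits at 7.98 for Rgs1 while no other control array exceeds 5.08.

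Before these values are read, 1 control array needs mention. Replicate 1 of control day 2 had a signal of 7.98 for Rgs1, against 4.44 in replicate 2 of that group. It was also the highest of the 14 control arrays for Rgs2 (8.14), Rgs10 (8.22), Rgs18 (7.14) and Rgs19 (8.07). For Rgs19 the margin was small, with 8.06 on replicate 2 of control day 7. On the same array the summed signal of 6 macrophage markers was 12.08 on the log2 scale, against 11.41 in replicate 2 and 11.24 to 11.75 on the other 13 control arrays, and that of 3 neutrophil markers was 9.45, against 6.58 in replicate 2. The sum of 4 platelet markers on this array was 10.99, against 9.85 to 10.32 on the other 13 control arrays. Values of day 2 are therefore given with and without this array. The fit shares 1 estimate of spread per gene over all groups, so the array also enters the standard errors and calls of other days. For Rgs1 the standard error was 0.63 on every day, and 0.30 on day 2 without the array. The arrays of a group correlated at 0.979 to 0.995 across genes. On day 1 the RNA also differed between arrays. The probe sets at the 3′ end of Actb exceeded those at its 5′ end by 2.72 and 2.28 in CLA pads, and by 2.77 and 1.5 in control pads of that day, against 0.77 to 1.44 in CLA pads and 1.10 to 1.87 in control pads from day 3 on. The part of these values in the results was not tested.

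By the call used for all genes, an adjusted p under 0.05 in limma, 2 of the 9 members passed on day 1, where 18.8% of all genes did. On day 2, 3 passed against 10.2% of all genes, on day 3, 8 against 22.3%, and on day 4, 7 against 24.1%. On day 7, 6 passed against 17.3%, on day 10, 7 against 20.3%, and on day 17, 7 against 20.3%. Averaged over the 7 days, 7 passed, 5 higher and 2 lower in CLA pads, against 38.5% of all genes. Since the members were chosen with these differences known, nothing is read from the counts.

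Several members lie side by side in the genome. In the order of protein-coding genes in RefSeq (GRCm38.p6), Rgs2, Rgs13, Rgs1, Rgs21 and Rgs18 follow each other on chromosome 1 with no other protein-coding gene between them. The 3 of them that are members were all higher in CLA pads from day 2 on. Rgs13, which lies between Rgs2 and Rgs1 and is best known from germinal centre B cells and mast cells, stood at 2.27 to 3.13 in CLA pads and 2.37 to 2.68 in control pads, below the array medians of 4.1 to 4.2, and did not pass (0.08, adjusted p = 0.358 in limma). Rgs21 was not analysed here. Rgs5 and Rgs4 are direct neighbours further along chromosome 1, on opposite strands, and both were lower in CLA pads from day 2 on. Rgs16 has Rgs8 as its neighbour, and Rgs8 did not pass either (-0.02, adjusted p = 0.839 in limma).

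The 250 bases before each listed start were taken from RefSeq (GRCm38.p6), whose table has a window for 7 of the 9 members, 2 for Rgs3 and 3 for Rgs19. The windows of Rgs10 and Rgs19 and the second of Rgs3 lie within the annotated span of the gene, before a start other than the outermost. Windows of Rgs1 and Rgs18 were not analysed here. Members whose differences share a sign are shown side by side, Rgs2 and Rgs10 with higher signal and Rgs4 and Rgs5 with lower signal in CLA pads. The windows lie at chr1:144004150-144004399 on the minus strand (Rgs2), chr7:128418173-128418422 on the minus strand (Rgs10), chr1:169747643-169747892 on the minus strand (Rgs4) and chr1:169655251-169655500 on the plus strand (Rgs5). Capitals mark matches, on either strand, to TGACG (the core of a cyclic AMP response element), to the CCAAT box, to the TATA box motif TATAAA and to the motif GAGGAAG (a core bound by the myeloid factor PU.1).
Rgs2: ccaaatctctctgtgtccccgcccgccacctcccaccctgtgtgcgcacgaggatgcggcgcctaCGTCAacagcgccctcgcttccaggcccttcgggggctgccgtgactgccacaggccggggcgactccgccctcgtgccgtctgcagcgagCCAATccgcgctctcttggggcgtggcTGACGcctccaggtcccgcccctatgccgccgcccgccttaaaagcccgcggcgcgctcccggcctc
Rgs10: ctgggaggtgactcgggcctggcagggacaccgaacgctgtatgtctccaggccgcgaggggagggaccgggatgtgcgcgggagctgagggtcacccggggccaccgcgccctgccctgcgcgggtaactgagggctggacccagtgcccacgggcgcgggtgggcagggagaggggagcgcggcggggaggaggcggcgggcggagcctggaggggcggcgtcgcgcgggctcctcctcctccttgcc
Rgs4: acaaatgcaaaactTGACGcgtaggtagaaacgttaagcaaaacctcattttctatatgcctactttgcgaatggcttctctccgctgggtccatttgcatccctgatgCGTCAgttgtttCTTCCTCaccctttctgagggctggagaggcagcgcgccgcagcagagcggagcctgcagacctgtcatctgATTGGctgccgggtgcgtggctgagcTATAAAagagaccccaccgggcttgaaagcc
Rgs5: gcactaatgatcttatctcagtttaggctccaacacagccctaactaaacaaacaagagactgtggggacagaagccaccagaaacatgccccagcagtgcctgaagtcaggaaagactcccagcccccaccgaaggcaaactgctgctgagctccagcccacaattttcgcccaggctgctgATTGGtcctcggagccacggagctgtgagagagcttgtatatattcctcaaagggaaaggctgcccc

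Rgs2 and Rgs4 each hold TGACG on both strands, and no other of the 7 members with a window holds it. TGACG occurs in 17.8% of the 32851 windows of this length in the table, CCAAT in 33.8%, TATAAA in 12.4% and GAGGAAG in 10.6%. CCAAT matched in 4 members (Rgs2, Rgs4, Rgs5, Rgs16), GAGGAAG in 3 (Rgs4, Rgs16, Rgs19) and TATAAA in 2 (Rgs3, Rgs4). The full element TGACGTCA, found in 1.55% of windows, and the AP-1 motif TGANTCA, found in 6.75%, matched in 0 of the 7. No 2 matches overlap. These letters are a description of the windows, and Rgs2 and Rgs4, which share TGACG, differed from control in opposite directions on every day.

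Rgs1, which damps chemokine receptor signals in B cells and other leukocytes, had the largest difference of the 9. On day 1 its signal was 5.70 and 6.67 in CLA pads, against 4.45 and 4.30 in control pads. On day 2 it was 9.66 and 9.52 in CLA pads, against 7.98 and 4.44 in control pads. From day 3 to day 17 all 10 CLA arrays lay between 10.12 and 10.70, and all 10 control arrays between 4.19 and 5.08. The CLA arrays were thus above the control arrays on each of the 7 days. The difference, CLA minus control, was 1.81 ± 0.63 (SE, n = 2 arrays per diet) on day 1, 3.38 on day 2, 6.29 on day 3, 5.45 on day 4, 5.92 on day 7, 6.06 on day 10 and 6.30 on day 17. No fold is given, since control arrays near the array medians of 4.1 to 4.2 cannot be told from background. Without replicate 1 of control day 2 the difference on day 2 was 5.15 ± 0.30, and without replicate 2 it was 1.61. Its 1 probe set, 1417601_at, leaves no other to compare.

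Macrophage markers were measured beside Rgs1. Of 6 (Adgre1, Cd68, Csf1r, Itgam, Fcgr1, Mertk), 5 rose over all 7 days by limma at an adjusted p under 0.05, against 18.7% of all genes, and Mertk did not pass (0.51, adjusted p = 0.0983), with a list median of 2.09 and no member below the array medians in mean. Their summed signal was 11.05 and 11.26 in CLA pads of day 1, against 11.52 and 11.43 in control pads of day 1. From day 3 on it was 13.01 to 13.68 in CLA pads, against 11.24 to 11.75 in control pads. On day 1 the sum was thus no higher in CLA pads, while 1 of its genes, the Fc receptor Fcgr1, already differed by 2.35 (adjusted p = 0.00349 in limma). Neutrophil markers (S100a8, S100a9, Camp) had a summed signal of 9.22 and 9.58 in CLA pads of day 1, against 6.86 and 6.45 in control pads of day 1. That sum was also high, at 8.99, on replicate 1 of control day 7, where Rgs1 stood at 4.39. In a whole pad, more cells of a type and more RNA per cell cannot be told apart, and the part of leukocyte number in these values was not tested.

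**Figure D2:**
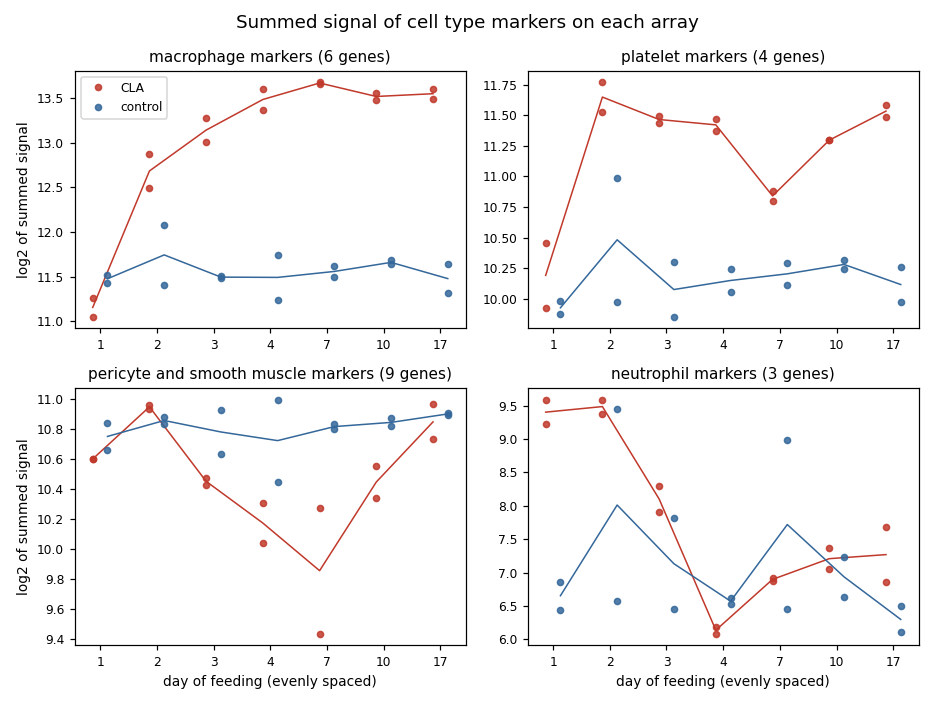
Log2 of the summed signal of 4 sets of cell type markers on each array, by day of feeding, with CLA in red left of control in blue. Lines join group means. Sums add unlogged signals, so bright genes weigh most, and 2 of the 4 platelet markers did not pass over all 7 days. Macrophage markers reach 13.01 to 13.68 in CLA pads from day 3 on, platelet markers 10.80 to 11.58, and neutrophil markers stand at 9.22 to 9.59 in CLA pads of days 1 and 2.

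Rgs18, found mainly in platelets, megakaryocytes and myeloid cells, overlapped between the diets on day 1 and had a larger difference on each later day than on the day before it in the series. Its signal on day 1 was 6.56 and 5.29 in CLA pads, against 6.37 and 5.58 in control pads, and the groups overlapped. On day 17 it was 8.94 and 8.74 in CLA pads, against 5.49 and 5.47 in control pads. The difference was -0.05 ± 0.46 on day 1, 1.28 on day 2, 2.19 on day 3, 2.25 on day 4, 2.58 on day 7, 2.74 on day 10 and 3.36 on day 17, the last being 10.3-fold. Day 2 without replicate 1 of control day 2 gave 2.0 ± 0.50, and without replicate 2 it gave 0.575. The second probe set, 1420398_at, ran from -0.01 on day 1 to 3.79 on day 17.

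Platelet markers were measured for comparison. Of 4 (Pf4, Ppbp, Itga2b, Gp9), 2 rose over all 7 days, against 18.7% of all genes. Pf4 rose by 1.13 ± 0.16 (adjusted p = 0.000659 in limma) and Itga2b by 0.32 ± 0.08 (adjusted p = 0.0092). Ppbp (-0.03) and Gp9 (-0.07) did not pass, and the list median was 0.15. The sum below adds unlogged signals, so bright genes weigh most in it. The summed signal of the 4 was 10.80 to 11.58 in CLA pads from day 3 on, against 9.85 to 10.32 in control pads, with no member below the array medians in mean. The part of platelets in the values of Rgs18 was not tested.

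Rgs10, a small RGS protein of macrophages, microglia and lymphocytes, was lower on day 1 and higher afterwards. Its signal on day 1 was 6.60 and 6.84 in CLA pads, against 7.54 and 6.93 in control pads. On day 17 it was 10.16 and 9.86 in CLA pads, against 7.37 and 7.22 in control pads. It differed by -0.52 ± 0.30 on day 1, 1.11 on day 2, 1.96 on day 3, 1.93 on day 4, 2.06 on day 7, 2.29 on day 10 and 2.71 on day 17, the last being 6.57-fold. Without replicate 1 of control day 2 the value of day 2 was 1.65 ± 0.31, and without replicate 2 it was 0.58. Rgs10 has 1 probe set, 1416882_at. The 6 macrophage markers differed on day 1 by -0.30 (Adgre1), 0.285 (Cd68), -0.51 (Csf1r), -0.18 (Itgam), 2.35 (Fcgr1) and -0.395 (Mertk), and Mertk was also negative on day 2 (-0.145).

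Rgs2, which acts mainly on Gq and is induced by cyclic AMP and calcium signals, was lower in CLA pads on day 1 and higher on the later days. On day 1 its signal was 6.60 and 6.00 in CLA pads, against 7.62 and 7.15 in control pads. On day 3 it was 9.18 and 9.25 in CLA pads, against 7.22 and 7.16 in control pads, and on day 17 it was 9.24 and 9.35 in CLA pads, against 6.31 and 7.62 in control pads. Both CLA arrays of day 1 were thus below every control array but 1, which stood at 6.31, and that 1 lay below the first CLA array. CLA minus control was -1.08 ± 0.36 on day 1, 0.81 on day 2, 2.02 on day 3, 1.86 on day 4, 2.33 on day 7, 2.0 on day 10 and 2.33 on day 17, or 5.03-fold on the last. Day 2 without replicate 1 of control day 2 gave 1.38 ± 0.39, and without replicate 2 it gave 0.235. Of its further probe sets, 1419248_at ran from -0.85 to 2.53 and 1419247_at from -0.92 to 2.80, each with its lowest value on day 1, while 1443250_at, with a mean signal of 3.18, stayed within -0.25 to 0.28.

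Rgs19, also called GAIP, which acts on Gi subunits and is found in many cell types, had small and steady differences. Its signal ran from 7.72 to 8.80 with a median of 8.5 over the 14 CLA arrays, and from 7.22 to 8.07 with a median of 7.80 over the 14 control arrays. The CLA arrays were above the control arrays of their day on all 7 days. CLA minus control lay between 0.41 ± 0.23 on day 1 and 0.86 on day 3, and was 0.72 on day 17, or 1.65-fold. The value of day 2, 0.58, was 0.77 ± 0.28 without replicate 1 of control day 2 and 0.39 without replicate 2. The value of day 10, 0.72, became 0.36 without replicate 1 of control day 10. The second probe set, 1434940_x_at, was -0.26 on day 1 and 0.60 to 1.07 afterwards.

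Rgs5, the RGS gene by which pericytes and vascular smooth muscle cells are recognised, was lower in CLA pads from day 2 on, most of all on day 7. Its signal was 9.67 and 9.80 in CLA pads of day 1, against 9.63 and 9.61 in control pads. On day 7 it was 7.69 and 7.94 in CLA pads, against 9.41 and 9.73 in control pads, and on day 17 it was 8.65 and 8.59 in CLA pads, against 9.80 and 9.60 in control pads. All control arrays lay within 9.38 to 9.90, and from day 2 on no CLA array exceeded 9.06. CLA minus control was 0.12 ± 0.20 on day 1, -0.59 on day 2, -1.11 on day 3, -1.32 on day 4, -1.75 on day 7, -1.03 on day 10 and -1.08 on day 17. The value of day 7 is 3.38-fold lower. Day 2 without replicate 1 of control day 2 gave -0.77 ± 0.23, and without replicate 2 it gave -0.41.

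The 3 further probe sets of Rgs5 were also negative from day 2 to day 17, at -1.61 to -0.97 for 1420942_s_at, -2.07 to -0.45 for 1420941_at and -1.65 to -0.41 for 1420940_x_at. They placed the lowest value on day 3 and not on day 7. Of 9 markers of pericytes and smooth muscle, 3 fell over all 7 days by limma, against 19.8% of all genes. They were Cspg4 (-1.43 ± 0.15, adjusted p = 0.000117), Kcnj8 (-1.02 ± 0.19, adjusted p = 0.00254) and Abcc9 (-0.76 ± 0.16, adjusted p = 0.00537). Kcnj8 and Abcc9 encode the subunits of a potassium channel of pericytes. Pdgfrb (0.21), Acta2 (-0.38), Myh11 (-0.41), Tagln (-0.18), Cnn1 (-0.06) and Notch3 (-0.29) did not pass, and Cnn1 had a mean below the array medians. The list median was -0.38, and its summed signal was 9.44 to 10.96 in CLA pads from day 3 on, against 10.45 to 10.996 in control pads. Of 6 endothelial markers, 4 fell over all 7 days and 0 rose, against 19.8% and 18.7% of all genes. Cdh5 fell by 1.26 and Kdr by 1.21. Whether the pads held fewer pericytes was not tested.

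Rgs3, which acts on Gi and Gq and is made as several protein forms, was lower in CLA pads by a similar amount throughout. Its signal ran from 6.85 to 7.56 with a median of 7.17 over the CLA arrays, and from 7.34 to 8.45 with a median of 7.98 over the control arrays. The 2 diets overlapped on day 1 alone. CLA minus control was -0.46 ± 0.28 on day 1, -0.92 on day 2, -0.90 on day 3, -0.68 on day 4, -0.66 on day 7, -0.69 on day 10 and -0.82 on day 17. Without replicate 1 of control day 2 the value of day 2 was -1.32 ± 0.31, and without replicate 2 it was -0.52. The probe set 1425701_a_at gave larger differences, from -2.06 to -0.81, whereas 1449516_a_at was 0.27 on day 1 and -0.45 to -0.23 later, and 1454026_a_at stayed within -0.43 to 0.20. Which protein forms each probe set reads is not given in the sources used here.

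Rgs4, best known from neurons and heart muscle and acting on Gi and Gq, was higher in CLA pads on day 1 and lower afterwards. Its signal on day 1 was 6.38 and 6.17 in CLA pads, against 5.64 and 4.43 in control pads. On day 4 it was 3.80 and 3.80 in CLA pads, against 4.46 and 4.89 in control pads, and on day 17 it was 4.59 and 4.38 in CLA pads, against 4.60 and 4.69 in control pads. The CLA arrays were above control on day 1 and below it on every later day, narrowly so on day 17. These gave differences of 1.24 ± 0.25 on day 1, -0.46 on day 2, -0.73 on day 3, -0.88 on day 4, -0.83 on day 7, -0.71 on day 10 and -0.16 on day 17. Day 2 gave -0.375 ± 0.31 without replicate 1 of control day 2 and -0.545 without replicate 2. The value of day 1 became 0.635 without replicate 2 of control day 1. Most of these signals lie near the array medians of 4.1 to 4.2, where a probe set cannot be told from background because the values carry no detection calls. The further probe sets showed less, at 0.17 on day 1 and -0.52 to -0.21 later for 1416287_at, and within -0.26 to 0.10 for 1448285_at.

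Rgs16, an RGS gene that immune and metabolic signals switch on in lymphocytes and liver, showed the smallest differences. Its signal ran from 3.96 to 4.46 with a median of 4.09 over the CLA arrays, and from 3.90 to 4.61 with a median of 4.17 over the control arrays. These signals lie near the array medians of 4.1 to 4.2, where background cannot be told from expression. A lack of change in expression can therefore not be read from them. CLA minus control lay between -0.24 ± 0.16 on day 7 and 0.15 on day 2. The value of day 2 was 0.025 ± 0.20 without replicate 1 of control day 2 and 0.285 without replicate 2. On day 1 the 2 further probe sets, with mean signals of 3.13 and 3.04, below the array medians, were higher in CLA pads. The first, 1455265_a_at, read 3.61 and 4.04 in CLA pads, against 3.32 and 3.12 in control pads. The second, 1426037_a_at, read 3.42 and 3.59 in CLA pads, against 3.06 and 3.03 in control pads.

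**Figure D3:**
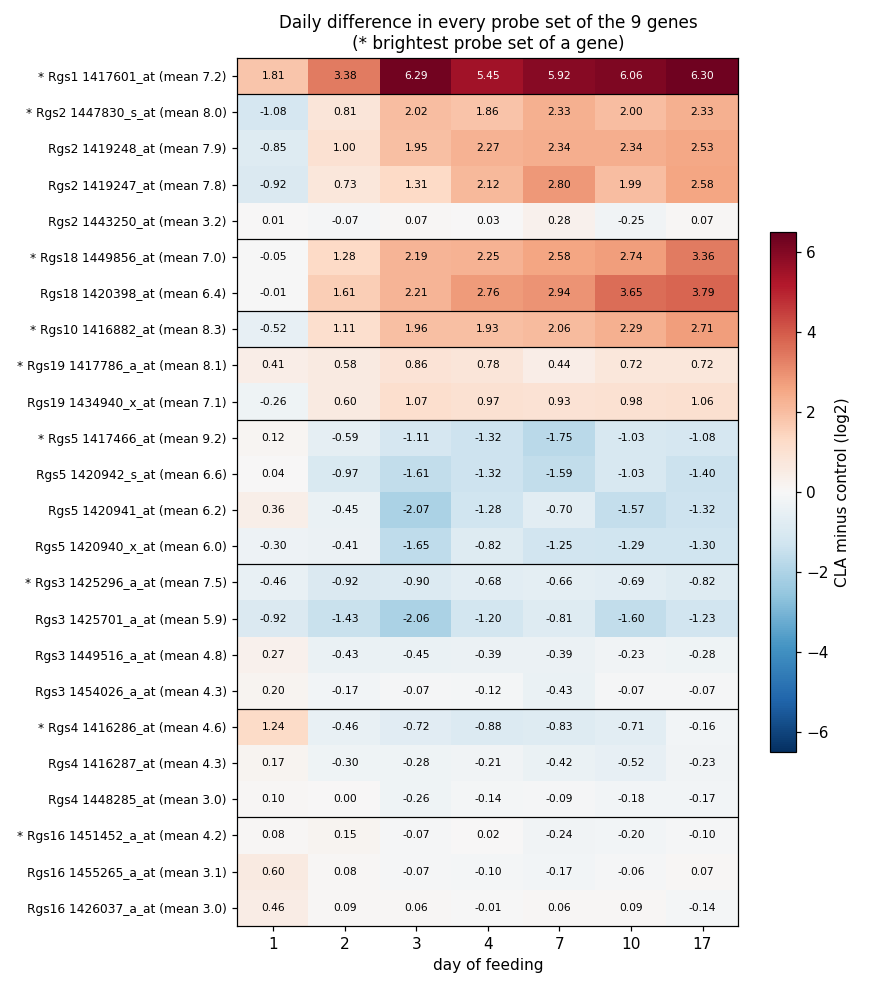
CLA minus control (log2) on each day for all 24 probe sets of the 9 genes, red higher and blue lower in CLA pads, with the brightest probe set of a gene marked by an asterisk and the mean signal of each probe set beside its name. From day 2 on, the probe sets of Rgs2, Rgs18, Rgs19, Rgs5 and Rgs3 share the sign of the brightest one. The exception is the dim set 1443250_at of Rgs2.

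The control diet gave a comparison that the choice of genes did not name. Over the 7 control groups, 0 of the 9 members passed the F test of limma at an adjusted p under 0.05, with adjusted p between 0.866 and 0.974, and 0 had an unadjusted p under 0.05. Of all genes, 0.115% passed, so 0 of 9 does not set the members apart. The control group means of Rgs1 ran from 4.29 to 6.21, the highest being that of day 2, and those of Rgs5 from 9.52 to 9.78. With replicate 2 of control day 2 left out, so that replicate 1 alone stood for that day, the test of Rgs1 gave an adjusted p of 1.74e-05. With replicate 1 left out it gave 0.992.

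The members' profiles over the 14 group means were set against each other and against all other genes. Pearson's r was 0.976 between Rgs10 and Rgs18, 0.972 between Rgs2 and Rgs10 and 0.971 between Rgs1 and Rgs18, and it was -0.938 between Rgs5 and Rgs10. These are descriptions over groups that share the division into 2 diets, without a test. The genes most like Rgs1 were Lpxn (r = 0.996), an adaptor protein of leukocytes, Slc11a1 (0.995), a metal transporter of phagosomes, and Rnf128 (0.995), a ubiquitin ligase. Those most like Rgs10 were Dock2 (0.992), which drives leukocyte migration, Ms4a7 (0.990), a membrane protein of macrophages, and Arhgap9 (0.990). For Rgs18 they were Snx5 (0.991), Clec4a3 (0.991), a lectin of myeloid cells, and Crlf3 (0.990), and for Rgs2 they were Arhgap18 (0.989), Manba (0.985), a lysosomal mannosidase, and Fgd4 (0.984).

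The genes most like Rgs5 were Cdh13 (r = 0.984), a cadherin of endothelium and smooth muscle, Adgrf5 (0.977), an adhesion receptor, and Kcnj8 (0.972), the pericyte channel subunit named above. For Rgs3 they were Smpd1 (0.973), an acid sphingomyelinase, Jmjd8 (0.963) and Acsf3 (0.960), a mitochondrial acyl-CoA synthetase. For Rgs19 they were Nudt21 (0.966), Ccl6 (0.965), a chemokine of myeloid cells, and Med17 (0.963). Rgs4 was followed by Hbs1l (0.981), Xrcc5 (0.970) and Pdrg1 (0.964). For Rgs16 the highest values were lower, at 0.823 for Map3k5, 0.814 for Enho and 0.783 for Rdh10.

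Other proteins with an RGS domain were counted in the same way. Of 19 measured, 4 rose and 2 fell over all 7 days by limma at an adjusted p under 0.05, with a median of -0.04, against 18.7% of all genes that rose and 19.8% that fell. Rgs7, a neuronal RGS protein that works only as a partner of the G beta subunit Gnb5, fell by 1.34 ± 0.12 (adjusted p = 4.64e-05). Its signal was 3.38 to 4.39 in CLA pads and 4.32 to 5.92 in control pads. Gnb5 fell by 1.40 ± 0.10 (adjusted p = 2.45e-05). Axin2, a scaffold of the Wnt pathway with an RGS domain, fell by 1.22 ± 0.20 (adjusted p = 0.00152), and Akap10, an anchoring protein of protein kinase A, rose by 0.54 ± 0.08 (adjusted p = 0.000864). The other 3 that rose were Rgs14 (0.34), Axin1 (0.28) and Arhgef1 (0.34), chosen for naming after their values were seen.

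G proteins, on which RGS proteins act, came next. Of 13 alpha subunits, 3 rose and 4 fell over all 7 days, against 18.7% and 19.8% of all genes, with a median of -0.12. Gna13 rose by 1.05 ± 0.14 (adjusted p = 0.000433 in limma), Gnal, a relative of the Gs subunit, fell by 1.15 ± 0.10 (adjusted p = 5.78e-05), and Gnai1, an inhibitory subunit, fell by 0.96 ± 0.13 (adjusted p = 0.000383). Of 14 beta and gamma subunits, 3 rose and 4 fell, with a median of 0.03. Gng2 rose by 1.93 ± 0.30 (adjusted p = 0.000966), and Gng7 fell by 0.73 ± 0.07 (adjusted p = 8.22e-05). Gng7 read 3.36 to 3.86 in CLA pads and 4.0 to 4.76 in control pads. The signals of Rgs7, Gnal and Gng7 in CLA pads, and of C5ar1 in control pads, reach the array medians, where background cannot be told from expression, so the sizes of these differences are uncertain.

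Among effectors, 4 of 19 rose and 8 fell over all 7 days, against 18.7% and 19.8% of all genes, with a median of -0.07. Adcy7, the adenylyl cyclase of leukocytes, rose by 2.09 ± 0.33 (adjusted p = 0.00115 in limma), and the phospholipases Plcb4 and Plcb1, which Gq activates, fell by 1.11 ± 0.10 (adjusted p = 6.26e-05) and by 1.02 ± 0.11 (adjusted p = 0.000177). Of 6 receptor kinases and arrestins, 1 rose, Arrb2, an arrestin that ends receptor signals, by 1.63 ± 0.23 (adjusted p = 0.00056), and 1 fell, Grk3, by 0.32 ± 0.09 (adjusted p = 0.0214). The call of Grk3 was lost in 3 other settings, at -0.35 with the most variable probe set, -0.29 without replicate 1 of every group and -0.32 without day 3. The list median was -0.02.

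Receptors were counted by the cells they serve, against 18.7% of all genes that rose and 19.8% that fell, without a test between lists. Of 8 measured hormone and catecholamine receptors of fat, 5 fell and 0 rose over all 7 days in limma, with a median of -1.98. Hcar1, the lactate receptor, fell by 2.75 ± 0.12 (adjusted p = 4.14e-06), Mc2r, the corticotropin receptor, by 2.52 ± 0.22 (adjusted p = 4.5e-05) and Oxtr, the oxytocin receptor, by 2.14 ± 0.31 (adjusted p = 0.000606). A further 8 receptors of this list, the beta adrenergic ones included, were not analysed here. Of 15 leukocyte receptors, 9 rose and 0 fell, with a median of 1.54. C3ar1 and C5ar1, the receptors of complement fragments, rose by 2.93 ± 0.32 (adjusted p = 0.000141) and by 2.21 ± 0.29 (adjusted p = 0.000423), and Ccr1, a chemokine receptor, rose by 1.75 ± 0.22 (adjusted p = 0.000289).

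Of 8 vascular receptors, 2 rose and 0 fell over all 7 days, against 18.7% and 19.8% of all genes, with a median near 0 (-0.004). S1pr2 rose by 1.53 ± 0.22 (adjusted p = 0.000662 in limma) and S1pr3 by 1.07 ± 0.11 (adjusted p = 0.000134), both receptors of sphingosine phosphate. Of 12 early genes of cyclic AMP and calcium signals, the class to which Rgs2 belongs, 5 rose and 2 fell, with a median of 0.20. Fos rose by 3.70 ± 0.23 (adjusted p = 1.22e-05), Rcan1, an inhibitor of calcineurin, rose by 0.93 ± 0.22 (adjusted p = 0.00865), and Pde4d, which breaks down cyclic AMP, fell by 1.5 ± 0.13 (adjusted p = 4.49e-05). On day 1, when Rgs2 was lower in CLA pads, 7 of the 12 were called higher and 1 lower, with a median of 0.825. Of all genes, 18.8% were called on that day, counting either direction. The 3 named differed then by 2.86 (Fos), 2.39 (Rcan1) and -1.83 (Pde4d).

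**Figure D4:**
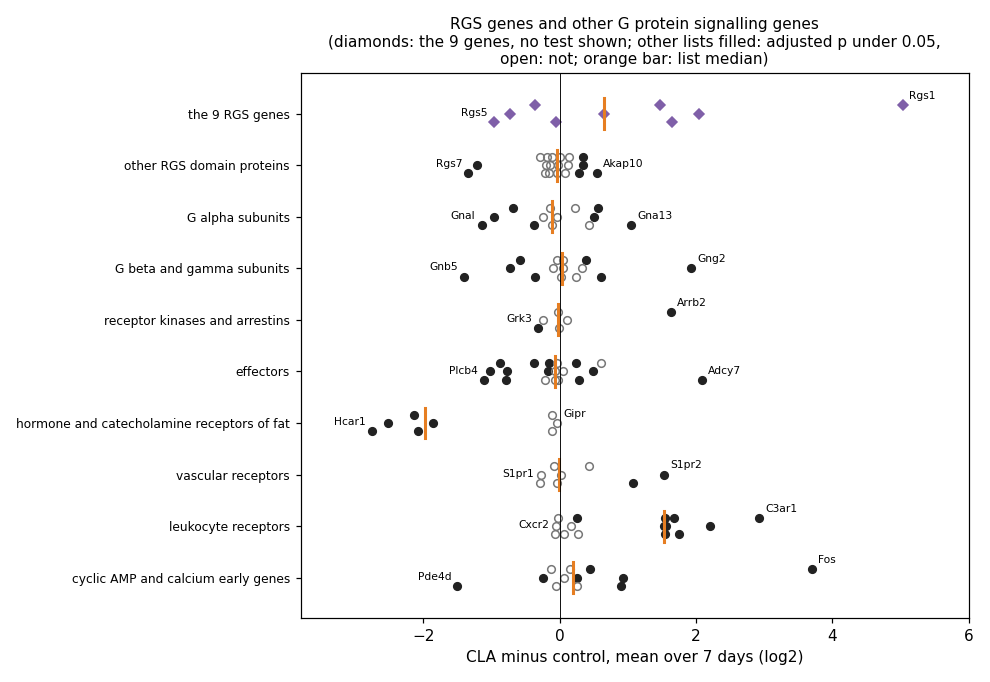
CLA minus control averaged over the 7 days (log2) for the 9 RGS genes and 9 lists of other G protein signalling genes, 1 point per gene, with the list median as an orange bar and the genes at both ends named. Filled points passed an adjusted p under 0.05 in limma, open points did not, and the 9 RGS genes are drawn as diamonds without a test. Receptors of fat lie at or below 0 and leukocyte receptors mostly above it.

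The tissue label was checked against markers of adipocytes. The summed signal of 5 adipocyte markers (Adipoq, Lep, Slc2a4, Cidec, Lipe) was 13.89 to 14.57 in control pads and 12.75 to 13.43 in CLA pads. All 5 fell over all 7 days in limma, against 19.8% of all genes, with a median of -1.87. The summed signal of 5 skeletal muscle markers varied widely between arrays, from 7.53 to 12.12 in CLA pads and 8.69 to 13.08 in control pads. Of these 5, 1 fell and 0 rose over all 7 days, against 19.8% and 18.7% of all genes. The part of muscle in the results was not tested. Of 3 B cell, 3 T cell, 4 mast cell and 3 neutrophil markers, 0 passed over all 7 days in limma, against 38.5% of all genes. Ms4a1 (-0.31, adjusted p = 0.0935), Cpa3 (0.74, adjusted p = 0.0987) and S100a8 (0.89, adjusted p = 0.0767) did pass with the 28 arrays as the unit, with or without the replicate block. The summed signal of the mast cell markers was 9.35 to 10.35 in CLA pads of days 7 to 17, against 8.198 to 8.76 in control pads of those days, and the mast cell protease Cpa3 differed by 2.39 on day 17.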

How the data were processed

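The deposited values are log2 probe set signals. Per the labels they were made by the authors with RMA, whose version is not given in the sources used here. They run from 1.90 to 14.18 with array medians of 4.1 to 4.2, and carry no detection calls. They were used as deposited, with no filter and no further scaling. GEO's annotation of the probes names 1 gene for 34958 probe sets, several for 932 and none for 9211, and 34754 of the first matched RefSeq (GRCm38.p6) by gene ID.

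Differences were fitted with limma 3.58.1 in R 4.3.3, as 1 model over the 14 groups with 14 residual degrees of freedom, and over all 7 days on group means with the day as a block. P-values are two-sided and adjusted by Benjamini and Hochberg over the 18194 genes. The scripts were tested on simulated data. Plots used Python 3.11.15 and matplotlib 3.10.9.

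The members and gene lists were chosen with earlier results of these data known. The rule for naming genes took all members and, from each list, up to the 3 largest called changes over all 7 days (where none was called, the largest value). For each member it took the 3 genes with the highest correlation over group means, among named genes whose group means span over 1 log2 unit. Chromosome neighbours, further RGS domain genes that rose and other genes of marker lists are named beside these. Not every gene the rule took is named. Alternatives were other scaling, a filter on dim genes, the most variable probe set, an intensity trend, a replicate block and leaving out arrays or days. Over all 7 days, the 28 arrays were also used as the unit in place of group means, and the replicate block was fitted on those arrays. Replicate numbers were not used to pair the arrays in the main fit, and whether they do pair them was not settled.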

Additional observations from a re-analysis of the deposited data

Results flagged for a closer look

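On different days 4 members differed from control in opposite directions, with the arrays of the 2 diets not overlapping in either case. Rgs2 was lower in CLA pads on day 1, by a CLA minus control value of -1.08, and higher on the other 6 days. Rgs10 was lower on day 1 (-0.52 ± 0.30), where a control array stood at 6.93 and a CLA array at 6.84, and higher on the other 6. Rgs4 was higher on day 1 (1.24) and lower on the other 6, and Rgs5 was higher on day 1 by a small amount (0.12) and lower on the other 6. On day 1 the further probe sets gave 0.175 and 0.10 for Rgs4, and 0.035, 0.36 and -0.305 for Rgs5. The excess of 3′ over 5′ signal of Actb also differed between arrays of day 1, as given above, and its part in these values was not tested. The differences between days were not tested, since the genes were chosen with them known.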

How the results depend on the processing

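Of the 63 daily values of the members, 40 were past the call, and 12 results on these moved by over 1.5 times in another setting: 6 with the most variable probe set (Rgs2, Rgs3, Rgs5) and 6 with an array left out (Rgs1, Rgs3 and Rgs10 on day 2, Rgs4 on day 1, Rgs19 on day 10, given above), beside uncalled values of day 2. Quantile normalisation, median centring and the other settings left the counts of changed genes of every day within 1.5 times. The 21 genes that differed between control days became 3 with dim genes left out, 40 with an intensity trend and 36 with the replicate block.

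Leaving out 1 array moved the counts to 2697 to 3590 on day 1, 343 to 2434 on day 2, 2687 to 4144 on day 3, 2846 to 4459 on day 4, 2095 to 3256 on day 7, 2432 to 3792 on day 10 and 2352 to 3837 on day 17, and to 15 to 225 between control days. Over all 7 days it was 5601 without replicate 2 of every group, 7114 without replicate 1 of control day 2 and 7897 without day 1. The lowest came without control replicate 2 on days 1, 2 and 3, CLA replicate 2 on day 4 and CLA replicate 1 on days 7, 10 and 17, and day 2 also gave 884 without CLA replicate 2. Between control days, leaving out replicate 2 gave 225 for day 2, 37 for day 7 and 36 for day 17. A lone array is then assumed to vary like the other groups. Fits without replicate 1 of control day 2 on other days were added after seeing the data, and gave the highest count of each of those days. Leaving out an array of the day itself lowered the count on every day but day 2. On day 2, 2434 came without control replicate 1.

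Same-numbered arrays of the 2 diets deviated together on all 7 days, with correlations of 0.0978 to 0.566 over genes. The main fit has no term for the replicate number, and whether the numbers pair the arrays was not settled. With the replicate block the daily counts rose, to 4060 from 3420 on day 1 and to 2354 from 1852 on day 2. Over all 7 days the count was 7007 on group means and 8078 with the 28 arrays as the unit. On those arrays with the replicate block added it was 8365. Of 44 list and marker genes picked for naming, 40 were called, of which Grk3 and Myh1 lost the call in some setting. Myh1 (-0.74) lost it with the 28 arrays as the unit (adjusted p = 0.0948 in limma) and with the replicate block added (0.0799). It also lost the call without replicate 1 of every group. Of the other 4, Ms4a1, Cpa3 and S100a8 gained it with the 28 arrays as the unit (adjusted p = 0.0144, 0.00532 and 0.027 in limma). With the replicate block added they also passed (0.0103, 0.0046 and 0.0228). Ms4a1 also gained it without day 1, and S100a8 without replicate 1 of every group, day 4 or day 7. Other list genes were not rerun singly. With 2 arrays a group, small differences remain below detection.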
